A study of Mus musculus with 40 samples.

Results

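The basal layer of the mouse mammary gland was followed through 10 genes of the 22552 in the deposited expression table. They are the basal keratin genes Krt5, Krt14 and Krt17, the regulators Trp63 and Sox10, the contractile genes Acta2, Myh11, Mylk and Cnn1, and the oxytocin receptor gene Oxtr. The genes were listed by symbol for what they are known to mark in myoepithelium, and all 10 were found in the table. Expression was measured by RNA sequencing of whole mammary tissue from outbred mice, in 31 libraries that make up 12 groups, 5 of them of 2 libraries and 7 of 3. In Ezh2 KO mice floxed Ezh2 alleles (Ezh2f/f) were deleted by the Cre transgene of line A, so the mammary tumour virus promoter (MMTV), active in mammary epithelium, sets which cells lose the gene. Ezh1 KO mice were E1-/-, and their labels name no Cre transgene. Ezh1 het Ezh2 KO mice combined E1+/- with the floxed Ezh2 alleles and the transgene, and control mice carried MMTV-Cre. All 4 genotypes were sampled at day 13 (p13) and day 18 (p18) of pregnancy, without treatment. Ezh2 KO and control virgins, 12 weeks old, were sampled in addition without and with prolactin, the pituitary hormone that drives milk gene expression, injected at 5 µg per g of body weight. In the virgins the left gland of the pair numbered 4 was removed under anaesthesia at estrus, without its lymph node, and the right one was taken 2 h after the later injection. Time, anaesthesia and surgery therefore came with the hormone. The 5 groups of 2 libraries were the 4 virgin groups and p18 Ezh1 KO. Ezh1 and Ezh2 encode related histone methyltransferases, the catalytic subunits of Polycomb repressive complex 2.

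Myoepithelial cells form the outer, basal layer of mammary ducts and alveoli, between the luminal cells that make milk and the basement membrane. They carry keratins 5 and 14 like the basal cells of other stratified epithelia, and smooth muscle actin and myosin like smooth muscle, although they are epithelial. Oxytocin, released during suckling, binds its receptor on these cells and makes them contract, which ejects the milk. In whole tissue, fewer cells of a type and less RNA per cell cannot be told apart.

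The table gives FPKM, which is fragments scaled to transcript length and to the mapped total, as 1 value of the authors for each group. There are no replicate values, so no difference below has a replicate check, an SD or a test, the read depth is unknown, and an order of neighbouring groups cannot be set against their spread. Differences are taken on log2(FPKM + 1), mutant minus control, prolactin minus none or later minus earlier stage, and on this scale low genes appear closer than they are. A size of 1 or more is counted as past the threshold, and the same count is given over the 14273 genes with at least 1 FPKM in a group. All 10 basal genes were among these, and none fell below 4.83 FPKM in any group. Milk proteins took 1.69% of all FPKM in p13 control glands and 46.9% in the p18 control group, and the FPKM of every gene is relative to a total that includes them. The p13 control group stood apart by its skeletal muscle transcripts, 1.67% of its summed FPKM, with 0.436% in p13 Ezh1 KO and at most 0.0722% elsewhere. The Ezh1 transcript was at 1.06 and 0.627 FPKM in Ezh1 KO glands at p13 and p18, against 14.7 and 7.37 in control glands. Ezh2 was at 13.7 and 6.41 FPKM in Ezh2 KO glands at p13 and p18, against 12.9 and 10.0 in control glands, and this level of the whole gene does not check the Ezh2 KO labels.

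Several of the 10 genes are also made outside the myoepithelium, so markers of those cells were read beside them. The contractile genes are shared with vascular smooth muscle. A list of 10 vascular smooth muscle and pericyte genes summed to 131 FPKM in p13 Ezh2 KO, 216 in p13 Ezh1 KO, 181 in p13 Ezh1 het Ezh2 KO and 409 in p13 control. At p18 the sums were 107 FPKM in Ezh2 KO, 84.4 in Ezh1 KO, 76.0 in Ezh1 het Ezh2 KO and 80.8 in control, so the p13 control group was the highest of the 8 pregnant groups and the p18 groups lay close together. Des, which encodes desmin of muscle filaments, made up 177 FPKM of the p13 control sum. The keratins, Trp63 and the laminins are shared with skin. Of the defining skin genes, Krt1 reached at most 0.141 FPKM, Krt2 0.0109 and Lor, the loricrin gene, 0.201 in any group, so these 3 were at or near 0 throughout. Of 12 skin genes 11 were in the table, and their sum ran between 19.7 and 44.2 FPKM over the 12 groups, most of it from Sbsn, the suprabasin gene, at 17.1 to 37.1 FPKM. At p13 Sbsn was at 19.0 FPKM in Ezh2 KO and 37.1 in control. Krtdap reached 7.10 FPKM and Krt79 2.32, and Krt10 was at 1.87 FPKM in Ezh2 KO and 1.32 in control at p13. The part of skin in the basal values was not tested. Sox10 is shared with Schwann cells of nerves and with melanocytes. Tyrp1, an enzyme gene of melanocytes, reached at most 0.0249 FPKM, the 6 melanocyte genes summed to between 2.55 and 9.74 FPKM, and Schwann cell values are given below beside those of Sox10. Krt5 shares sequence with Krt6a, Krt14 with Krt17, and Acta2 with Actg2 and the other actins, so reads may have been split among these genes.

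Krt5 and Acta2 stand for the keratin and the contractile side of the layer, and their promoters are shown because they carry the letters of different factor motifs. The protein of Trp63 binds a motif of its own, and serum response factor, the partner of myocardin proteins at muscle genes, binds the CArG box. Promoter sequences, 250 bases before and 50 after the start, were available from RefSeq on GRCm38.p6 for 6 of the 10 genes. Capitals mark a single unit of the p63 motif, which in full is a pair of such units, in Krt5 (chr15:101712856-101713155, minus strand) and the CArG boxes, with at least 5 of 6 core letters A or T, in Acta2 (chr19:34255324-34255623, minus strand).
Krt5: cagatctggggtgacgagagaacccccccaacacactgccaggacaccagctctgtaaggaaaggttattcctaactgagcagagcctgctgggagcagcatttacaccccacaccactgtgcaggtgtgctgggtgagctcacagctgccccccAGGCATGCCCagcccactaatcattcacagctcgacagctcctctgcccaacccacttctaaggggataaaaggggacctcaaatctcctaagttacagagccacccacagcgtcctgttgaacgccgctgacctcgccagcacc
Acta2: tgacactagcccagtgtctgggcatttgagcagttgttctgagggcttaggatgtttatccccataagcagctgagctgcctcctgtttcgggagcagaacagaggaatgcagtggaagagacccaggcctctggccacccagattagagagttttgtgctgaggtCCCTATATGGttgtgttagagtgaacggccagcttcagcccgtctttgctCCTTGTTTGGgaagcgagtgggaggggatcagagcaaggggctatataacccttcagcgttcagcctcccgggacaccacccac
The Krt5 match begins 95 bases before the start, and the Acta2 matches begin 84 and 34 bases before it. The p63 unit and the CArG box were read on both strands, and they did not overlap. Of 32851 mouse promoters in the table, 8.36% hold such a single p63 unit and 9.98% such a CArG box. Neither motif stood in the windows of Krt14, Mylk, Cnn1 and Oxtr, which says only that these letters are not there. A match is a description of the sequence, and binding was not measured.

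**Figure D1:**
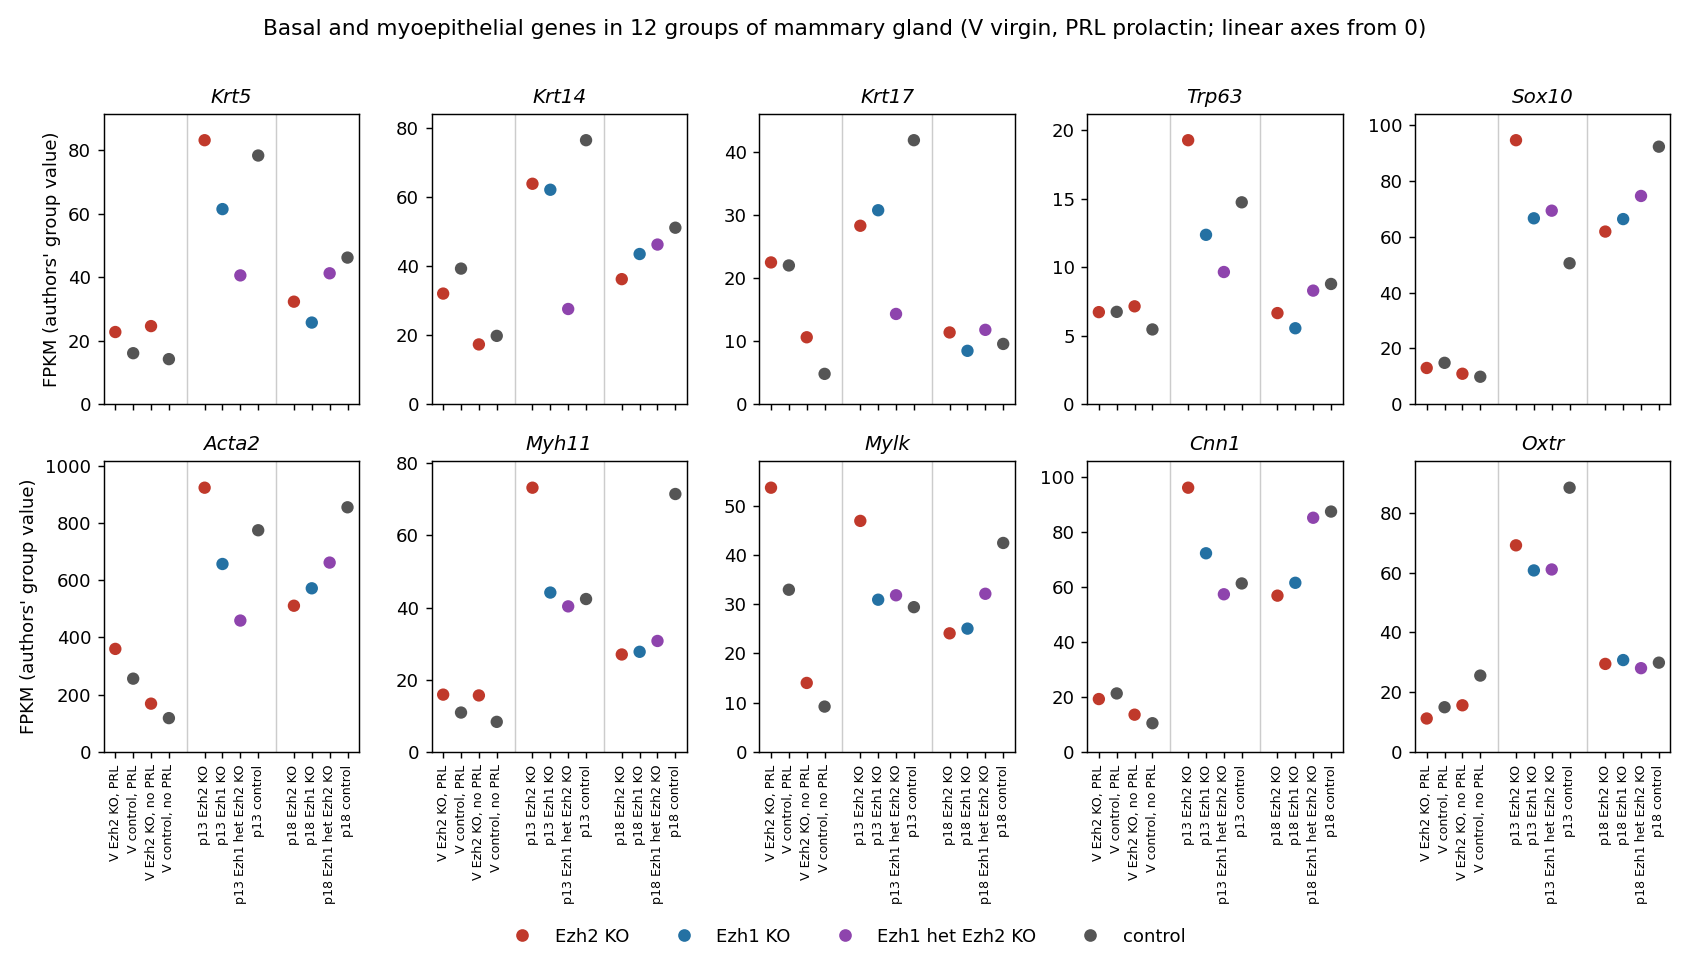
FPKM of the 10 genes (1 panel each, linear axes) in the 12 groups, 1 point for the authors' value of each group, with virgin, p13 and p18 groups separated by grey lines. For Krt5, Sox10, Acta2, Myh11, Cnn1 and Oxtr all 4 virgin groups lie below all 8 pregnant ones, while Mylk is highest, at 53.6 FPKM, in Ezh2 KO virgins after prolactin.

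Pregnancy carried the widest differences of the basal genes. All 10 were higher at p13 than in virgins without prolactin by at least 1 log2 unit, both in Ezh2 KO and in control glands. Over all genes, 11% in Ezh2 KO and 9.12% in control passed the threshold upward. The median difference of the 10 was 1.95 in Ezh2 KO and 2.23 in control, with 0.12 and 0.17 over all genes.

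Among the keratins, Krt5 stood at 83.1 FPKM at p13 and 24.6 in virgins of the Ezh2 KO, and at 78.2 at p13 and 14.2 in virgins in control. Krt14, the partner of keratin 5 in the filament, was at 63.9 FPKM at p13 and 17.4 in virgins in Ezh2 KO, and at 76.5 at p13 and 19.8 in virgins in control. Krt17, a keratin of basal and injured epithelium, was at 28.4 FPKM at p13 and 10.6 in virgins in Ezh2 KO, and at 41.9 at p13 and 4.83 in virgins in control. Its control difference of 2.88 was the largest of the keratins. Trp63, whose protein maintains basal epithelial identity, had the lowest level of the 10 at p13, 19.3 FPKM at p13 and 7.15 in virgins of the Ezh2 KO, against 14.7 at p13 and 5.46 in virgins in control. Sox10, a neural crest factor also made in mammary epithelium, was at 94.6 FPKM at p13 and 10.9 in virgins in Ezh2 KO, and at 50.5 at p13 and 9.87 in virgins in control, 8.64-fold and 5.12-fold higher at p13.

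The contractile genes were 3.35 to 7.12-fold higher at p13 in Ezh2 KO and 3.20 to 6.58-fold higher in control. Acta2, the smooth muscle actin, was the most abundant of the 10 genes, at 923 FPKM at p13 and 168 in virgins in Ezh2 KO, and 774 at p13 and 118 in virgins in control. Myh11, the smooth muscle myosin heavy chain, was at 73.2 FPKM at p13 and 15.6 in virgins in Ezh2 KO, and 42.4 at p13 and 8.30 in virgins in control. Mylk encodes the kinase that switches this myosin on, and had 46.9 FPKM at p13 and 13.98 in virgins in Ezh2 KO, and 29.4 at p13 and 9.18 in virgins in control. Cnn1, the thin-filament protein calponin, was at 96.1 FPKM at p13 and 13.5 in virgins in Ezh2 KO, and 61.2 at p13 and 10.4 in virgins in control. The contractile genes thus stood further apart between the stages in Ezh2 KO than in control for Mylk and Cnn1, but not for Acta2 and Myh11 (2.45 and 2.16 in Ezh2 KO, 2.71 and 2.22 in control), and these differences between genotypes were not tested. Oxtr was at 69.1 FPKM at p13 and 15.6 in virgins in Ezh2 KO, and 88.4 at p13 and 25.5 in virgins in control. With the p13 Ezh1 KO group in place of the p13 control group, which carried the muscle transcripts, all 10 were again past the threshold against control virgins.

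Between p13 and p18 the courses of the genes differed by genotype. In the deposited scaling the keratins of control were lower at p18 and its contractile genes higher. All 10 genes were lower at p18 in Ezh2 KO and in Ezh1 KO. Over all genes the median difference of p18 minus p13 was -0.45 in Ezh2 KO, -0.48 in Ezh1 KO, -0.48 in Ezh1 het Ezh2 KO and -0.46 in control, so values near these follow the bulk of the table. The basal genes had medians of -1.07 in Ezh2 KO, -0.58 in Ezh1 KO, 0.018 in Ezh1 het Ezh2 KO and -0.21 in control. Past the threshold and lower at p18 were 5 of 10 in Ezh2 KO, 3 in Ezh1 KO, 1 in Ezh1 het Ezh2 KO and 2 in control. Over all genes 4.1% in Ezh2 KO, 12.1% in Ezh1 KO, 16% in Ezh1 het Ezh2 KO and 19.1% in control were lower to this degree. As the medians over all genes were alike, the count of every genotype, Ezh2 KO included, is read against a broad shift.

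Oxtr was lower at p18 in every genotype, at 29.4 against 69.1 FPKM in Ezh2 KO, 30.7 against 60.7 in Ezh1 KO, 28.0 against 61.1 in Ezh1 het Ezh2 KO and 29.8 against 88.4 in control. The 4 differences ran from -1.54 to -0.96, and the 4 levels at p18 lay between 28.0 and 30.7 FPKM. Krt17 was lower by 1.24 in Ezh2 KO, 1.75 in Ezh1 KO and 2.02 in control, and by 0.26 in Ezh1 het Ezh2 KO, which was already low at p13. Krt5 and Trp63 were past the threshold in Ezh2 KO (-1.34 and -1.40) and Ezh1 KO (-1.22 and -1.03), and had -0.75 and -0.69 in control. In Ezh1 het Ezh2 KO the keratins did not take this course, with Krt5 at 41.2 against 40.5 FPKM and Krt14 at 46.3 against 27.6, a difference of 0.72 that was gone with a common sum.

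In the deposited scaling the contractile genes and Sox10 took opposite courses in Ezh2 KO and control glands, which with a common sum held for Myh11 and Sox10 but not for Mylk, Cnn1 and Acta2. All 5 were lower at p18 in Ezh2 KO under each of the 5 rescalings. Myh11 was at 26.98 FPKM at p18 and 73.2 at p13 in Ezh2 KO (difference -1.41), but at 71.5 at p18 and 42.4 at p13 in control (0.74). Mylk had 24.1 FPKM at p18 and 46.9 at p13 in Ezh2 KO (-0.93), against 42.4 at p18 and 29.4 at p13 in control (0.52). Cnn1 had 56.8 FPKM at p18 and 96.1 at p13 in Ezh2 KO (-0.75), against 87.4 at p18 and 61.2 at p13 in control (0.51). Each of these genes was lower at p18 than at p13 in Ezh2 KO and higher in control. Sox10 followed the same pattern, with 61.9 FPKM at p18 and 94.6 at p13 in Ezh2 KO (-0.60) and 92.3 at p18 and 50.5 at p13 in control (0.86). Acta2 was at 510.2 FPKM at p18 and 923 at p13 in Ezh2 KO (-0.85), and at 854 at p18 and 774 at p13 in control (0.14). The difference between the 2 courses was -2.15 for Myh11, -1.46 for Sox10, -1.45 for Mylk and -1.25 for Cnn1, and was not tested. When all groups were rescaled to a common sum, Mylk and Cnn1 were level in control (-0.02 and -0.03), Acta2 turned to -0.40 there, and the Cnn1 difference between courses shrank to -0.83. Scaling to a common upper quartile or to ubiquitous genes left none of the 10 past the threshold in Ezh2 KO.

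**Figure D2:**
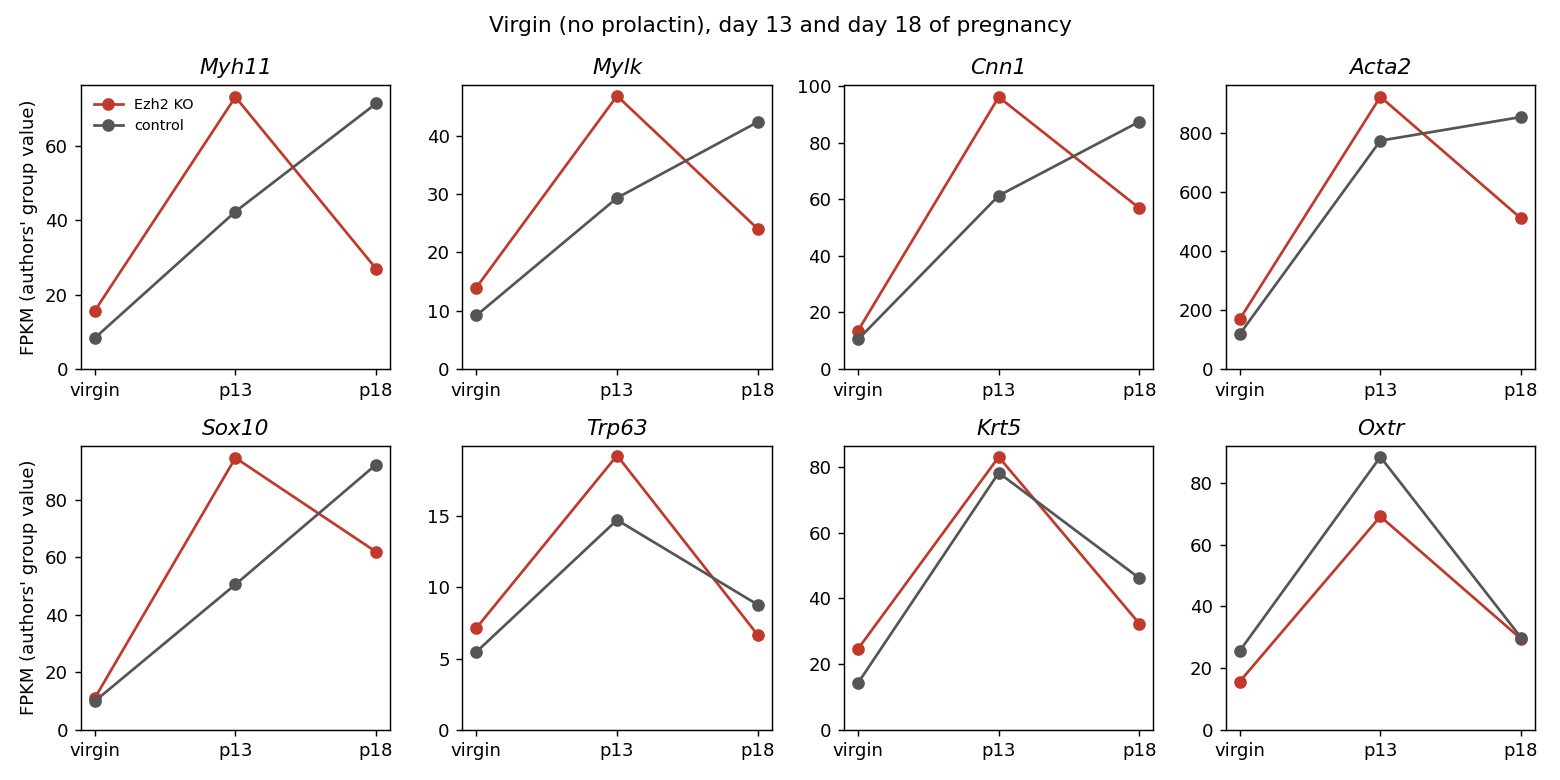
FPKM of 8 of the genes (1 panel each, axes from 0) in virgins without prolactin, at p13 and at p18, with Ezh2 KO in red and control in grey and 1 value a point. The lines of Myh11, Mylk, Cnn1, Acta2, Sox10, Trp63 and Krt5 cross between p13 and p18, while those of Oxtr meet at 29.4 and 29.8 FPKM.

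At p13, none of the 10 genes differed between Ezh2 KO and control by 1 log2 unit or more, against 9.23% of all genes. The median of the 10 was 0.31, and 0.012 over all genes. Within the set the keratins and the contractile genes leaned different ways. The contractile genes and both regulators were higher in Ezh2 KO, by 0.89 for Sox10, 0.78 for Myh11, 0.66 for Mylk, 0.64 for Cnn1, 0.37 for Trp63 and 0.25 for Acta2. Krt14, Krt17 and Oxtr were lower, by 0.26, 0.55 and 0.35, and Krt5 was level at 0.085. The Schwann cell list was lower in p13 Ezh2 KO, where Sox10 was higher. Its 9 measured genes, Sox10 not among them, summed to 81.5 FPKM in p13 Ezh2 KO and 429 in p13 control. The other p13 sums were 353 FPKM in Ezh1 KO and 257 in Ezh1 het Ezh2 KO. At p18 the sums were 65.4 FPKM in Ezh2 KO and 50.5 in control, where Sox10 was higher in control, and in virgins without prolactin 222 and 277, where Sox10 was low. The part of Schwann cells in the Sox10 values was not tested. The vascular list was lower in p13 Ezh2 KO as well, as given above, while the contractile genes were higher. Most of that vascular difference lay in Des, at 7.10 FPKM in Ezh2 KO and 177 in control, and Mcam, at 44.2 and 144. Rgs5 (33.3 and 35.3 FPKM) and Pdgfrb (13.4 and 16.0) were slightly lower in Ezh2 KO. Notch3 (14.8 and 13.8) and Kcnj8 (4.84 and 4.04) were slightly higher. The part of vascular cells in the contractile values was not tested.

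In p13 Ezh1 KO glands, too, none of the 10 passed the threshold against control (4.38% of all genes), and the median was -0.24. Krt5 was at 61.4 FPKM in Ezh1 KO against 78.2 in control, and Krt14 at 62.2 against 76.5. Krt17 was at 30.8 against 41.9 FPKM and Trp63 at 12.4 against 14.7, so the keratins and Trp63 were all slightly lower. Acta2 was at 656 against 774 FPKM and Oxtr at 60.7 against 88.4. Myh11 at 44.1 and Mylk at 30.9 FPKM were within 0.07 of control, Cnn1 was at 72.2, and Sox10 at 66.6 was higher by 0.39.

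The Ezh1 het Ezh2 KO group had the lowest basal keratins of the 4 genotypes at p13. Krt14 was at 27.6 FPKM in Ezh1 het Ezh2 KO against 76.5 in control (difference -1.44), and Krt17 at 14.4 against 41.9 (-1.48). Krt5, at 40.5 against 78.2 FPKM, lay just inside the threshold at -0.93. The 2 genes past it make up a larger part of 10 than the 3.19% of all genes that were lower. Trp63 was at 9.65, Acta2 at 458 and Oxtr at 61.1 FPKM, lower than control by 0.56, 0.75 and 0.53. Myh11 at 40.3, Mylk at 31.8 and Cnn1 at 57.3 FPKM stayed near control, and Sox10 at 69.4 was higher by 0.45. Of the contractile genes, Acta2 was thus lower, while the other 3 of 4 were within 0.11 of control. Set against Ezh2 KO, all 10 were lower (median -0.89), with Krt14 at -1.18, Krt5 at -1.02 and Acta2 at -1.01 past the threshold, and 0.666% of all genes were lower to this degree. Each of the 5 rescalings of the groups left only 1 of these 3 past it.

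At p18 Myh11 had the widest difference from control in each of the 3 mutants. Myh11 stood at 26.98 FPKM in Ezh2 KO, 27.7 in Ezh1 KO, 30.7 in Ezh1 het Ezh2 KO and 71.5 in control glands. The control value was the highest, and each mutant was lower by more than 1 log2 unit (-1.37, -1.34 and -1.19). It was the only basal gene past the threshold in each comparison, 1 of 10, against 2.14% of all genes in Ezh2 KO, 1.39% in Ezh1 KO and 1.55% in Ezh1 het Ezh2 KO. The 3 comparisons share the same control value.

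Acta2 was at 510.2 FPKM in Ezh2 KO, 571 in Ezh1 KO, 661 in Ezh1 het Ezh2 KO and 854 in control glands. Mylk was at 24.1 FPKM in Ezh2 KO, 25.0 in Ezh1 KO, 32.1 in Ezh1 het Ezh2 KO and 42.4 in control glands. Cnn1 was at 56.8 FPKM in Ezh2 KO, 61.5 in Ezh1 KO, 85.1 in Ezh1 het Ezh2 KO and 87.4 in control glands. For all of these the control group was the highest, and for Cnn1 the Ezh1 het Ezh2 KO group was level with it. Sox10 was at 61.9 FPKM in Ezh2 KO, 66.3 in Ezh1 KO, 74.6 in Ezh1 het Ezh2 KO and 92.3 in control glands. Trp63 was at 6.66 FPKM in Ezh2 KO, 5.55 in Ezh1 KO, 8.30 in Ezh1 het Ezh2 KO and 8.78 in control glands. Both regulators were again highest in control. Krt5 was at 32.3 FPKM in Ezh2 KO, 25.7 in Ezh1 KO, 41.2 in Ezh1 het Ezh2 KO and 46.1 in control glands. Krt14 was at 36.3 FPKM in Ezh2 KO, 43.6 in Ezh1 KO, 46.3 in Ezh1 het Ezh2 KO and 51.2 in control glands. Krt17 was at 11.4 FPKM in Ezh2 KO, 8.49 in Ezh1 KO, 11.8 in Ezh1 het Ezh2 KO and 9.59 in control glands, and so, unlike Krt5 and Krt14, was not highest in control. The medians of the 10 differences were -0.54 in Ezh2 KO, -0.54 in Ezh1 KO and -0.15 in Ezh1 het Ezh2 KO. They moved with the scaling, to -0.22 in Ezh2 KO with a common sum, and in Ezh1 het Ezh2 KO to -0.37 with a common sum, -0.45 with the ubiquitous genes and -0.53 when milk proteins were left out of that sum. Ezh1 het Ezh2 KO was higher than Ezh2 KO for 9 of 10, with a median of 0.31, but with a common sum the median turned to -0.19, and none was past the threshold (2.56% of all genes).

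**Figure D3:**
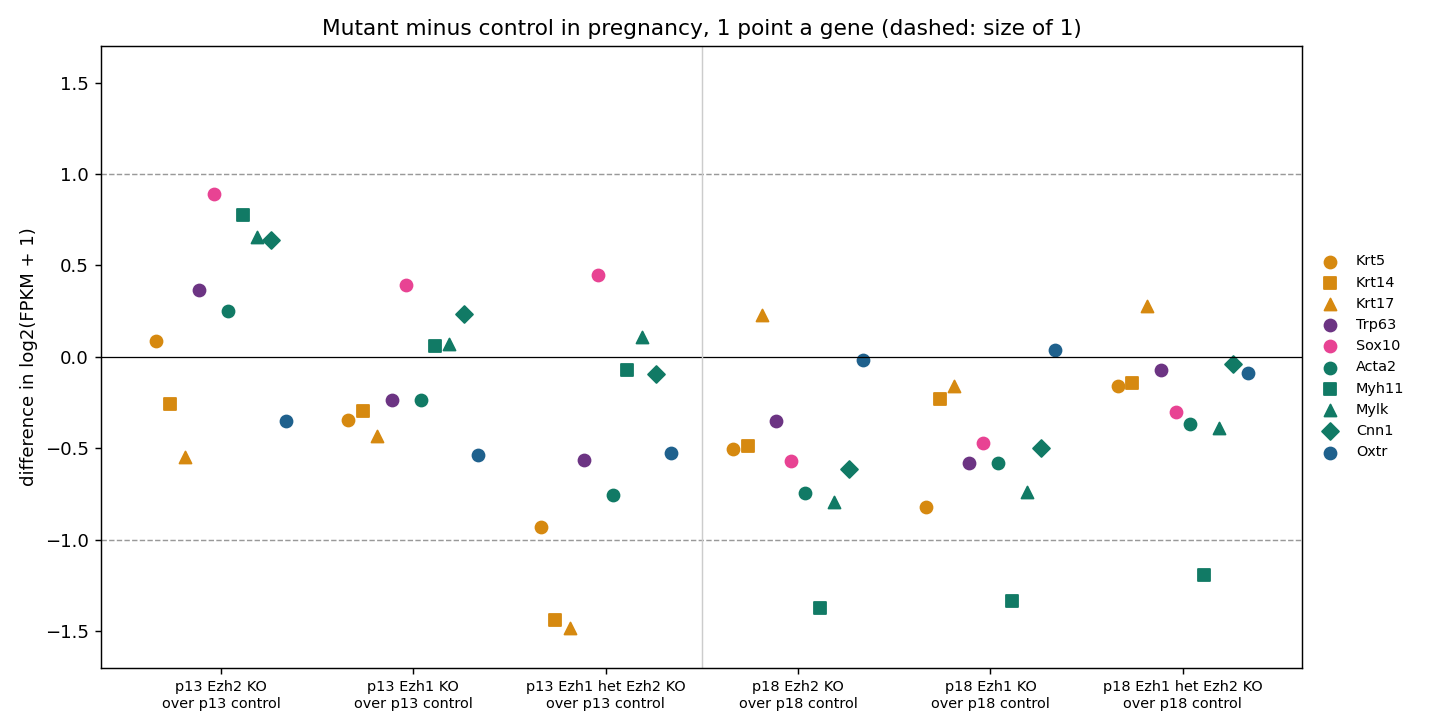
Difference in log2(FPKM + 1) of each mutant group minus the control group of the same stage, 1 point a gene, orange for keratins, green for contractile genes and other colours for the regulators and Oxtr, with dashed lines at a size of 1. Past the lines lie Krt14 and Krt17 in p13 Ezh1 het Ezh2 KO and Myh11 in the 3 mutants at p18.

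In virgin glands without prolactin, Ezh2 KO was higher than control for 8 of 10 basal genes, and none passed the threshold (4.26% of all genes did in either direction). The median difference was 0.43, and 0 over all genes. The levels were those given above, with Krt17 at 0.997 nearest the threshold, Myh11 at 0.84 and Krt5 at 0.75 next. A smaller pseudocount or 4 of the 5 rescalings carried 1 gene past it. Krt14 and Oxtr were lower in Ezh2 KO, by 0.18 and 0.68. After prolactin the median was 0.01, none of the 10 passed the threshold against 3.48% of all genes, and the largest difference was that of Mylk, at 53.6 FPKM in Ezh2 KO and 32.9 in control.

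Ratios within a group do not depend on how groups are scaled to each other. The ratio of Krt5 to Krt8, a keratin gene of luminal cells, was 0.161 in Ezh2 KO and 0.0441 in control virgins without prolactin, and 0.110 in Ezh2 KO and 0.0475 in control after it. At p13 it was 0.208 in Ezh2 KO, 0.197 in Ezh1 KO, 0.178 in Ezh1 het Ezh2 KO and 0.292 in control, and at p18 0.116 in Ezh2 KO, 0.0896 in Ezh1 KO, 0.142 in Ezh1 het Ezh2 KO and 0.177 in control. The ratio of a basal to a luminal keratin was therefore higher in Ezh2 KO than in control in virgins, and lower at both stages of pregnancy. Krt14 over Krt18 gave the same directions. It was 0.0790 in Ezh2 KO and 0.0462 in control virgins without prolactin, 0.140 in Ezh2 KO and 0.271 in control at p13, and 0.118 in Ezh2 KO and 0.160 in control at p18. The luminal markers went the opposite way to these ratios in virgins without prolactin and at p13, but not as a sum at p18. Of 13 luminal genes 3 were lower past the threshold in virgin Ezh2 KO without prolactin (median -0.77), and 2 were higher in p13 Ezh2 KO (median 0.72). Over all genes 4.26% and 9.23% passed it in either direction. At p18 the 13 genes summed to 2030 FPKM in Ezh2 KO and 2242 in control. Their part in the ratios was not tested.

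The summed contractile genes over the summed keratins gave 4.02 in virgin Ezh2 KO without prolactin, 6.49 at p13 and 7.73 at p18, and in control 3.74, 4.61 and 9.87. The contractile share thus grew at each stage in both genotypes, and was higher in Ezh2 KO at p13 but lower at p18. The other mutants lay at 5.20 (Ezh1 KO) and 7.12 (Ezh1 het Ezh2 KO) at p13, and at 8.81 and 8.14 at p18. Sox10 over Trp63, the regulators of the set, was 1.53, 4.91 and 9.29 in Ezh2 KO and 1.81, 3.43 and 10.5 in control over virgin, p13 and p18. The ratio was higher at each later stage in both genotypes, although between p13 and p18 both genes were lower at p18 in Ezh2 KO.

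**Figure D4:**
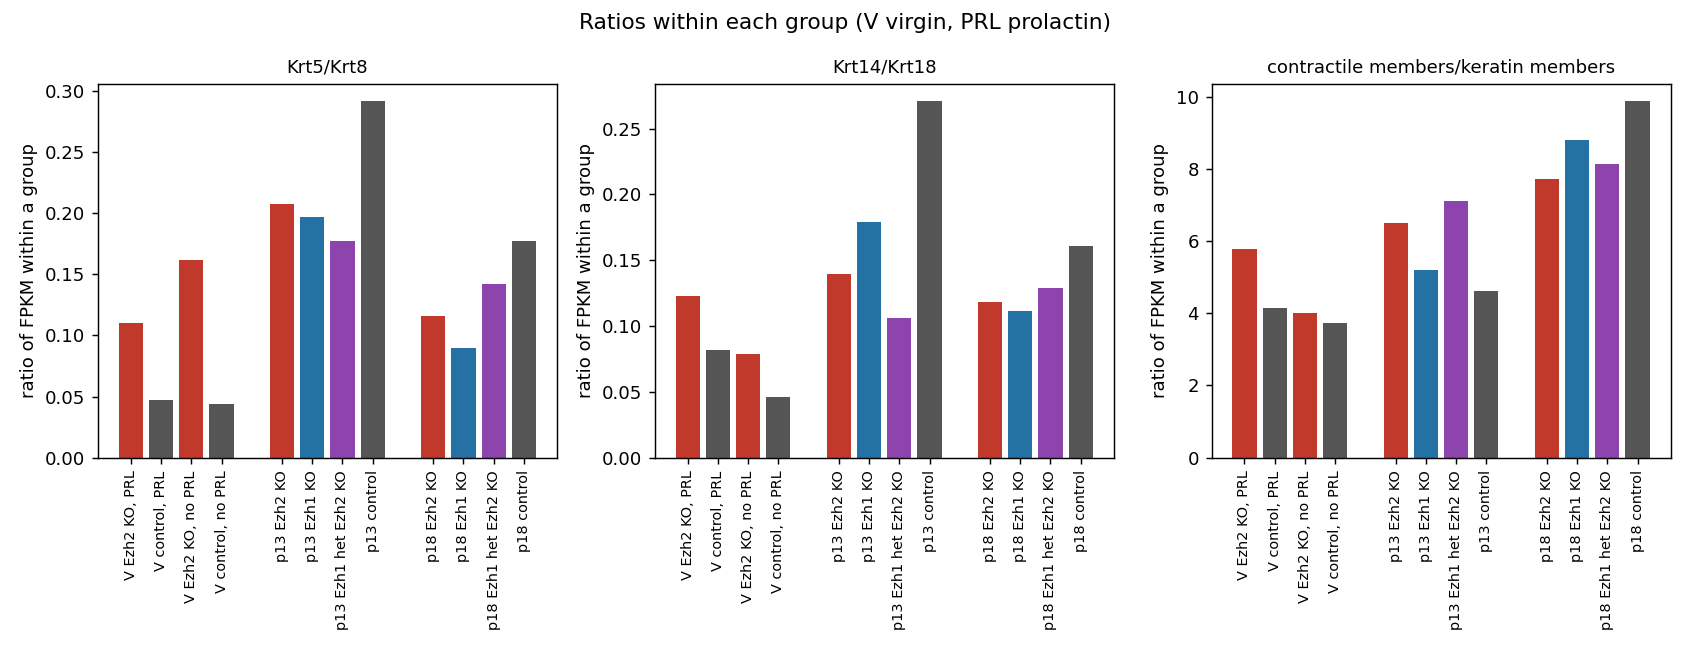
Ratios of FPKM within each of the 12 groups, as bars from 0, for Krt5 over Krt8, Krt14 over Krt18 and the 4 contractile genes over the 3 keratins. The basal to luminal keratin ratios peak in p13 control at 0.292 and 0.271, and the contractile ratio peaks in p18 control at 9.87.

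Prolactin came with higher levels of 3 of the 10 genes in virgins of both genotypes, 1 keratin and 2 contractile genes. Mylk was at 53.6 FPKM with and 13.98 without prolactin in Ezh2 KO (difference 1.87), and at 32.9 with and 9.18 without it in control (1.74). Acta2 was at 359 FPKM with and 168 without it in Ezh2 KO (1.09), and at 255 with and 118 without it in control (1.11). Krt17 was at 22.5 FPKM with and 10.6 without it in Ezh2 KO (1.01), and at 22.1 with and 4.83 without it in control (1.98). The Mylk level in Ezh2 KO after prolactin was the highest of the 12 groups, above every pregnant group. Over all genes 2.75% in Ezh2 KO and 4.76% in control passed the threshold upward. The 4 rescalings other than the common upper quartile left 1 gene, Mylk, past it in Ezh2 KO and Mylk and Krt17 in control.

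The remaining genes did not pass the threshold. Krt14 was at 32.1 FPKM with and 17.4 without prolactin in Ezh2 KO, and at 39.3 with and 19.8 without it in control, where it lay just inside the threshold at 0.95. Cnn1 was at 19.2 FPKM with and 13.5 without prolactin in Ezh2 KO, and 21.2 with and 10.4 without it in control. Both were higher with prolactin. Krt5 was at 22.7 FPKM with and 24.6 without prolactin in Ezh2 KO, and at 16.1 with and 14.2 without it in control. Trp63 was at 6.73 FPKM with and 7.15 without prolactin in Ezh2 KO, and at 6.75 with and 5.46 without it in control. Myh11 was at 15.8 FPKM with and 15.6 without prolactin in Ezh2 KO, and at 10.9 with and 8.30 without it in control. Krt5, Trp63 and Myh11 thus stayed within 0.35 of the glands without it. Sox10 was at 13.02 FPKM with and 10.9 without prolactin in Ezh2 KO, and 14.9 with and 9.87 without it in control. Oxtr went the other way, with 11.2 FPKM with and 15.6 without prolactin in Ezh2 KO, and 14.9 with and 25.5 without it in control, lower by 0.45 and 0.74. The skeletal muscle list, which was high in p13 control, took 0.0722% and 0.0150% of the summed FPKM with and without prolactin in Ezh2 KO, and 0.0455% and 0.0196% in control. Acta1 made up most of the list with prolactin, at 431 FPKM with and 8.46 without it in Ezh2 KO, and 273 and 13.04 in control. The other genes of the list were lower with prolactin in both genotypes, except Myl1 in Ezh2 KO (48.2 with and 46.1 without). The part of this list in the contractile values was not tested.

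**Figure D5:**
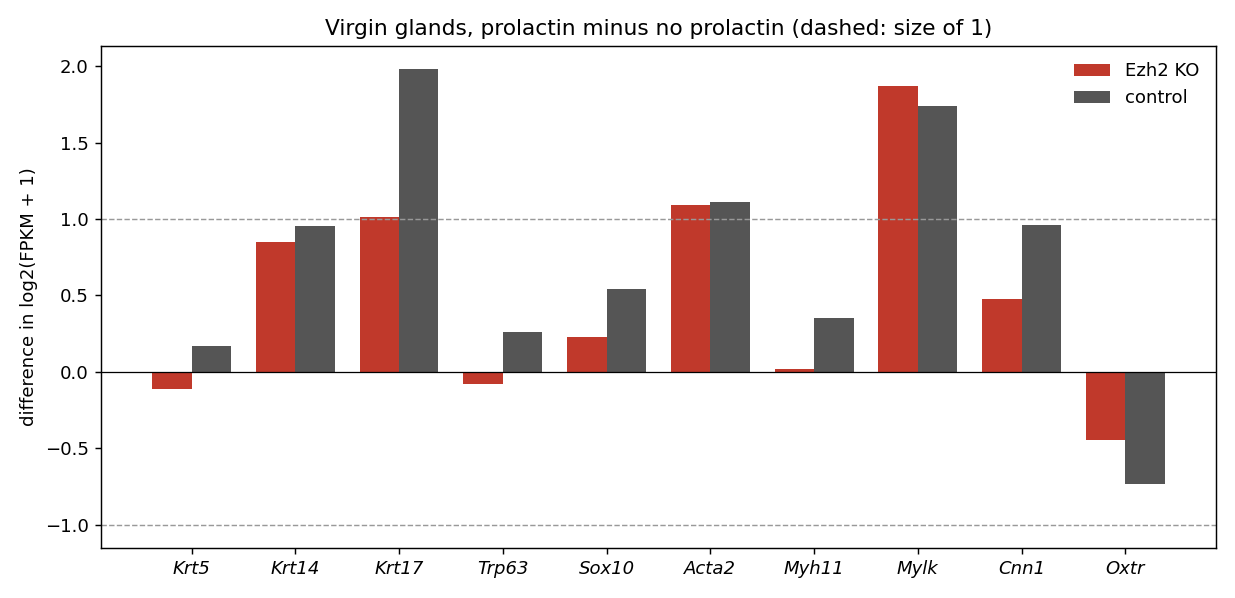
Difference in log2(FPKM + 1) of virgin glands with prolactin minus those without, as bars for each of the 10 genes, Ezh2 KO in red and control in grey, with dashed lines at a size of 1. Mylk, Acta2 and Krt17 pass the upper line in both genotypes, with Krt17 at 1.01 in Ezh2 KO and 1.98 in control, and Oxtr lies below 0 in both.

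Other genes of the basal layer were read from 4 lists. Of 15 basal adhesion and keratin genes, 13 reached 1 FPKM in a group, and at p13 against virgins 9 were higher and 1 lower in Ezh2 KO (median 1.31), and 9 higher and 0 lower in control (median 1.17). Higher to this degree were 11% of all genes in Ezh2 KO and 9.12% in control. The 1 lower was Dsc3, a desmocollin gene of cell junctions named after its values were seen, at 0.400 and 2.99 FPKM. Krt15, a basal keratin, was at 37.8 FPKM at p13 and 3.37 in virgins of the Ezh2 KO, and at 32.4 at p13 and 2.003 in virgins in control. Lamb3, a laminin chain of the basement membrane, was at 24.0 FPKM at p13 and 5.51 in virgins in Ezh2 KO, and 18.9 at p13 and 2.73 in virgins in control. These genes and Cdh3, the P-cadherin of basal cells, were thus higher at p13 in both genotypes, like the 10. In p18 Ezh1 KO 3 of 13 were lower, against 1.39% of all genes, with the hemidesmosome collagen Col17a1 at 4.02 FPKM in Ezh1 KO against 10.6 in control and the integrin Itga6 at 29.1 against 63.7. The other was Lama3, a laminin chain gene named after its values were seen, at 1.33 against 3.93 FPKM, while Krt15, at 6.69 against 14.3, lay just inside the threshold. In p18 Ezh2 KO 1 was lower, Col17a1 at 4.18 FPKM, and in p18 Ezh1 het Ezh2 KO 1, the linker gene Dst at 3.45 against 8.50 FPKM. Lower to this degree were 2.14% of all genes in p18 Ezh2 KO and 1.55% in p18 Ezh1 het Ezh2 KO. In p13 Ezh1 het Ezh2 KO Krt15 was lower along with Krt14 and Krt17, at 15.2 FPKM against 32.4 in control. With prolactin Krt15 was higher along with Krt17, at 10.2 against 3.37 FPKM in Ezh2 KO and 12.2 against 2.003 in control.

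Of 12 further contractile genes, 5 in Ezh2 KO and 9 in control were higher at p13 than in virgins, and none was lower. Over all genes 11% in Ezh2 KO and 9.12% in control were higher to this degree. Among the 9 in control were Tpm1, at 900.1 FPKM at p13 and 92.9 in virgins, Tpm2 (415 and 17.3) and Synpo2 (22.1 and 6.88). The limit given below for muscle transcripts applies to them here too. Tpm1 and Tpm2 were also among the 5 in Ezh2 KO. Actg2, a smooth muscle actin gene, was at 46.9 FPKM at p13 and 5.37 in virgins in Ezh2 KO, and 57.2 at p13 and 3.72 in virgins in control. Against p13 control, 3 were lower in Ezh2 KO, 2 in Ezh1 KO and 3 in Ezh1 het Ezh2 KO. They were Tpm2 and Synpo2 in Ezh1 KO, and those and Tpm1 in the other mutants. Of all genes, 9.23% in Ezh2 KO and 4.38% in Ezh1 KO passed the threshold in either direction. In Ezh1 het Ezh2 KO 3.19% were lower. In Ezh2 KO the tropomyosin genes were at 82.5 FPKM against 415 (Tpm2) and 223 against 900.1 (Tpm1), and Synpo2 at 3.74 against 22.1. All 3 are also made in striated muscle, whose transcripts were high in the p13 control group, and the part of muscle in them was not tested. No further contractile gene passed the threshold between a mutant and control at p18. The shares of all genes lower there were 2.14% in Ezh2 KO, 1.39% in Ezh1 KO and 1.55% in Ezh1 het Ezh2 KO. Lmod1, an actin nucleator of smooth muscle, was at 3.72 FPKM in Ezh2 KO, 4.01 in Ezh1 KO, 4.74 in Ezh1 het Ezh2 KO and 7.11 in control, below control in each mutant like Myh11. With prolactin Vcl, the adhesion protein vinculin, was at 103 against 50.2 FPKM in Ezh2 KO and 113 against 44.98 in control.

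Of 16 basal regulator and signal genes, 4 were higher and 1 lower at p13 than in virgins in Ezh2 KO, and 6 higher and 0 lower in control. Higher to this degree were 11% of all genes in Ezh2 KO and 9.12% in control. In Ezh2 KO the 4 were Igfbp2, Id4, Irx4 and Snai2, and the 1 lower was Vim, the vimentin gene, at 356 and 818 FPKM. Id4, a helix-loop-helix inhibitor of basal cells, was at 35.0 FPKM at p13 and 4.84 in virgins in Ezh2 KO, and 38.8 at p13 and 5.04 in virgins in control. It was lower in p13 Ezh1 het Ezh2 KO, at 17.4 FPKM against 38.8 in control, the only one of the list past the threshold there. Of all genes, 3.19% were lower to this degree in that group. In p13 Ezh2 KO Vim and Sparc of this list were lower past the threshold. Vim was at 356 FPKM against 780 in control, and Sparc at 1126 against 2534. Of all genes, 9.23% passed it there in either direction. Srf, the serum response factor gene, was at 21.5 with and 13.5 FPKM without prolactin in Ezh2 KO, and at 26.4 and 10.9 in control, where it was past the threshold. Of 14 genes of oxytocin and contraction signalling, none passed the threshold between any mutant and control at any stage. Of all genes, 9.23% passed it in p13 Ezh2 KO and 4.38% in p13 Ezh1 KO. In virgin Ezh2 KO the share was 4.26% without and 3.48% with prolactin. For p13 Ezh1 het Ezh2 KO and for p18 the shares of lower genes are given above. With prolactin Rock2, the kinase that keeps myosin active downstream of RhoA, was past it in both genotypes, at 50.6 against 21.1 FPKM in Ezh2 KO and 57.9 against 23.7 in control.

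The genes nearest to each member were found by Pearson correlation of log2(FPKM + 1) over the 12 groups, among 9624 genes, as a description without a test, since the groups share stages and scaling. Cnn1 and Sox10 lay closest among the 10, with r = 0.985, and Cnn1 was also first for Acta2 with 0.957. Krt5 had Moxd1 (0.969), Col17a1 and Snai2 nearest. Krt14 had Tagln, the transgelin gene, at 0.952, and Krt17 had Tgfb1i1 at 0.917. Trp63 had Eftud2 at 0.965, Sox10 Dtnb at 0.987, Myh11 Fhod3 at 0.972 and Oxtr Ank3 at 0.966. Mylk had Slc38a2 at 0.932, Eef2k at 0.891 and Cish, a cytokine-induced inhibitor of STAT signalling, at 0.875. The mean of the 10 genes lay nearest to Cdh3, with r = 0.969.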

How the data were processed

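Poly(A) RNA of whole mammary tissue was sequenced in 31 libraries, and 9 further libraries of the series, from chromatin, were not analysed here. The authors deposited 1 table of FPKM per gene, with 1 column for each of 12 groups and no replicate columns. The step that combined the libraries of a group is not stated in the labels. Build mm9 and the tools Cufflinks, Cuffdiff, TopHat, Bowtie, BWA, HOMER, FastQC, CASAVA and Trim Galore appear, without versions or roles, per the submitters' processing notes. Groups were taken from the labels.

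The planned limma model could not be fitted to 1 value per group, so differences of log2(FPKM + 1) are reported as descriptions, with no p-value. Genes with at least 1 FPKM in a group were kept, 14273 of 22552, and a size of 1 was counted. The 10 genes and all lists were chosen with earlier results of these data known. All 10 are named, and from each further list up to 4 genes with the largest differences and at least 5 FPKM. Alternatives were the pseudocount, the filter, the size counted, 5 rescalings of the groups and, chosen after seeing the data, the p13 Ezh1 KO group in place of p13 control. Promoters are from RefSeq, GRCm38.p6, and no coordinates of the files were used. Python 3.11.15, pandas 2.3.3 and NumPy 2.4.6 were used, and the scripts were tested on simulated data.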

Additional observations from a re-analysis of the deposited data

Results flagged for a closer look

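The genotype difference had opposite signs at p13 and p18 and changed by at least 1 log2 unit for 6 pairs of gene and genotype. Each rests on 1 value per group, and none of these differences was tested. For Ezh2 KO minus control, the p18 difference minus the p13 difference was -2.15 for Myh11, -1.46 for Sox10, -1.45 for Mylk and -1.25 for Cnn1, each higher than control at p13 and lower at p18. For Ezh1 KO it was -1.39 for Myh11, which was at 44.1 FPKM in Ezh1 KO and 42.4 in control at p13, and at 27.7 in Ezh1 KO and 71.5 in control at p18. For Ezh1 het Ezh2 KO it was 1.76 for Krt17, which was at 14.4 FPKM in Ezh1 het Ezh2 KO and 41.9 in control at p13, and at 11.8 in Ezh1 het Ezh2 KO and 9.59 in control at p18. The p13 control and the p18 control groups each enter all 6.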

How the results depend on the processing

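No paired analysis was possible because the table holds 1 value per group and no replicate columns, and for the same reason no replicate could be left out. Of the counts of basal genes past the threshold, 144 stayed within 1.5 times the reported count over all alternatives and 40 did not. The next counts take single genes and the median of the basal genes together. Of these values 1910 kept their side of the threshold, 86 lost it and 28 gained it. None of those past the threshold changed direction. At a size of 2 instead of 1 the counts at p13 against virgins were 5 in Ezh2 KO and 6 in control, and p18 against p13 in control gave 1. Every genotype and prolactin comparison that had a count, and p18 against p13 in the 3 mutants, gave 0. For p13 Ezh1 het Ezh2 KO against Ezh2 KO each of the 5 rescalings gave 1. For p18 Ezh1 KO against control both sums without milk proteins gave 2. For virgin Ezh2 KO against control without prolactin, a pseudocount of 0.1, the common sum, the upper quartile and both sums without milk proteins gave 1. For prolactin in Ezh2 KO the common sum, both sums without milk proteins and the ubiquitous genes gave 1. For p18 against p13, control gave 5 with the common sum, all lower, 6 with the upper quartile, 4 of them higher, and 4 with each of the other 3 rescalings, 2 of them higher. Ezh2 KO gave 0 with the upper quartile and with the ubiquitous genes. Ezh1 KO gave 6 with the common sum and 1 with either of these, and Ezh1 het Ezh2 KO gave 2 with the common sum. With the upper quartile Ezh1 het Ezh2 KO gave 1 higher and 0 lower, where the reported count is 1 lower. The cause was not tested. Over all genes the rescalings moved the median of p18 minus p13 in control between -0.90 with the common sum and -0.036 with the upper quartile, so directions between stages hold only relative to it. The p13 Ezh1 KO group in place of p13 control moved no count. Read depth is unknown, and low genes such as Trp63 carry an error that these values do not show.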

Other observations

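Acta1, the skeletal muscle actin gene, which shares sequence with Acta2, was singled out after its values were seen. In virgins it was at 431 FPKM with prolactin and 8.46 without in Ezh2 KO, and at 273 with and 13.04 without in control. Ckm, the muscle creatine kinase gene, was at 0.142 FPKM with and 2.40 without prolactin in Ezh2 KO, and at 0.291 with and 8.13 without in control. In p13 control, where both were high, Acta1 was at 2211 and Ckm at 1404 FPKM. Acta1 was thus high after prolactin while this other muscle gene was near 0.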
